A study of Homo sapiens with 36 samples.

Results

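Keratins, cadherins, vimentin and the transcription factors of the epithelial-mesenchymal transition (EMT) were examined in cancer cell lines treated with 6-thio-dG, a guanine nucleoside analog that is built into telomeres by telomerase. The members were chosen by name, 10 gene symbols in all: KRT7, KRT8, KRT18, KRT19, KRT80, VIM, CDH1, CDH2, ZEB1 and SNAI2. The authors' deposited table holds 11828 genes, and 8 of the 10 are among them. CDH2 (N-cadherin) and ZEB1 were not analysed here.

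RNA was sequenced after poly(A) selection, and the values come from 16 of the study's 36 libraries, 2 for each of 8 groups. A375 is a melanoma line with mutant BRAF. HCC827 is a lung adenocarcinoma line with mutant EGFR. Each line received one of 4 treatments for 3 days: DMSO as the control, 6-thio-dG alone, the targeted drug alone (PLX4720, which inhibits BRAF, in A375 and osimertinib, which inhibits EGFR, in HCC827), or 6-thio-dG with the targeted drug, called the combination. The libraries of the combination and of its reference therefore both carry the targeted drug. The labels do not say whether the 2 libraries of a group came from separate cultures, so p-values measure only the spread between these libraries, which may be technical.

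For every gene the authors' deposited table lists the log2 fold change with its raw and adjusted p-values in 4 comparisons: 6-thio-dG against control and the combination against the targeted drug, in each line. Its header names the reference arms "RNA" and "TKI1", which were read as the control and as the targeted-drug group. The table holds 0 columns of values per library, so neither the level of a gene nor its value in single libraries can be given, and the depth is unknown. The error beside a fold change is the standard error (SE) implied by that fold change and its p-value, with 2 libraries in each arm. A gene was called higher or lower at an adjusted p under 0.05. All values are relative amounts in bulk RNA, in which fewer cells of a type and less RNA per cell cannot be told apart. The label of each line could not be checked against its defining markers, since fold changes carry no levels: 3 of 9 melanocyte markers and 2 of 9 lung epithelial markers are in the table.

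Keratins are the intermediate filaments of epithelial cells, built from pairs of a type I and a type II chain. KRT8 (type II) and KRT18 (type I) are the pair that simple epithelia make first, KRT7 (type II) and KRT19 (type I) mark ductal and glandular epithelia, and KRT80 is a type II keratin linked to differentiation. Vimentin (VIM) is the intermediate filament of mesenchymal cells and of melanoma. E-cadherin (CDH1) holds epithelial cells together at adherens junctions, and SNAI2 (Slug) is a zinc-finger repressor that lowers CDH1 in EMT and in neural crest cells. The usual picture of EMT has keratins and CDH1 falling while VIM and SNAI2 rise.

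In GENCODE release 29 (GRCh38), 4 of the 5 keratin genes lie in the keratin cluster of chromosome 12. KRT80 spans positions 52168996 to 52192000, KRT7 52232520 to 52252186, KRT8 52897187 to 52949954 and KRT18 52948871 to 52952901. KRT19 lies on chromosome 17 (41523617 to 41528308), VIM on chromosome 10 (17228259 to 17237593), CDH1 on chromosome 16 (68737225 to 68835548) and SNAI2 on chromosome 8 (48917604 to 48921740). KRT8 and KRT18 lie on opposite strands and share 525 exonic bases, between positions 52949216 and 52949954, and RefSeq lists 52 numbered pseudogenes of KRT8, 68 of KRT18 and 5 of KRT19. VIM shares 641 exonic bases with the antisense gene VIM-AS1, KRT7 282 with KRT7-AS and CDH1 347 with AC099314.1. Whether reads were counted by strand or assigned to 1 copy is not given in the sources used here, so values of these genes may include reads from the overlapping gene or the copies.

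The exons of the 5 keratins are rich in G and C, from 55.9% in KRT8 to 60.02% in KRT19, against a median of 48.3% over the table's genes. VIM stands at 50.2%, CDH1 at 48.7% and SNAI2 at 41.01%. In all 4 comparisons the fold change moved with GC content. Over 11796 genes, which share libraries and are no replicates, Spearman's rho in A375 was -0.37 with 6-thio-dG alone and -0.25 with the combination, and in HCC827 it was 0.23 and 0.73. For the 8 genes, fold changes with this trend removed are given beside the deposited ones where the call or direction changed.

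The start of VIM is shown because VIM and KRT80 were called in all 4 comparisons as deposited, and VIM alone of the 8 genes was still called in all 4 with the GC trend removed. RefSeq promoter sequences (GRCh38.p14) matched 2 of the 8 genes, VIM and KRT8. The 250 bases upstream of the VIM start, chr10:17227991-17228240 on the plus strand, read as follows, with capitals marking a GC box, the GGGCGG motif bound by SP1, whose first base lies 46 bases upstream of the start.
VIM promoter: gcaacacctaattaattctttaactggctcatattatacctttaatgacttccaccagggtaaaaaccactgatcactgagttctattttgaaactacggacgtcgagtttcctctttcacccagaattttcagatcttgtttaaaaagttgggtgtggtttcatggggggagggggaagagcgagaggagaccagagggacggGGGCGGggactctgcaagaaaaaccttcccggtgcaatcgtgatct
The E-box bound by ZEB and SNAI factors (CAGGTG, or CACCTG on the other strand) and the AP-1 motif TGANTCA are not among the letters of this window or of the KRT8 window. The KRT8 window, chr12:52926470-52926719 on the minus strand, lies inside the GENCODE span of KRT8 given above. It does not cover the upstream end of that span. Over 35116 RefSeq windows of this length, 17.5% hold the E-box on either strand, 6.57% the AP-1 motif and 42.6% the GC box (GGGCGG, or CCGCCC on the other strand).

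Of the 5 keratins 4 fell in A375 after 6-thio-dG alone, 3 of them also with the GC trend removed, and VIM fell with them. Of the 8 genes, 5 were called lower and 1 higher, where 65.0% of all genes were called (31.3% higher and 33.7% lower), so the count of calls stood close to the background. Their median log2 fold change was -0.82, against 0.01 for all genes. In the authors' deposited table KRT7 stood at -1.11 (SE 0.16, adjusted p = 3.6e-11), KRT18 at -1.03 (SE 0.13, adjusted p = 1.4e-14) and KRT8 at -0.72 (SE 0.13, adjusted p = 7.8e-08). These are falls of 2.16-fold, 2.04-fold and 1.65-fold, and the 95% intervals of the partners KRT8 and KRT18 overlapped. KRT80 was lower by less, at -0.34 (SE 0.14, adjusted p = 0.022) in the authors' deposited table. With the GC trend removed the KRT80 value was 0.04, not called.

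VIM had the deepest fall of the 8 in A375 after 6-thio-dG alone. The authors' deposited table gives it -2.03 (SE 0.12, adjusted p = 1.8e-63), a 4.09-fold reduction, and 3.63% of the table's genes stood lower. SNAI2 went the opposite way, at 3.08 (SE 0.62, adjusted p = 2.5e-06) in the authors' deposited table, or 8.47-fold higher. Its SE was larger than that of 93.6% of genes, and its 95% interval ran from 1.86 to 4.30. The mesenchymal filament and the EMT repressor thus moved in opposite directions in these cells.

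KRT19 and CDH1 could not be resolved in A375. The authors' deposited table lists KRT19 at -0.91 (SE 1.46, adjusted p = 0.61) and CDH1 at 0.37 (SE 1.27, adjusted p = 0.82) after 6-thio-dG alone. Their 95% intervals, -3.78 to 1.957 and -2.11 to 2.85, include both a fall and a rise of more than 2-fold. These SEs exceed those of 97.7% and 97.3% of the table's genes. In HCC827 the same genes had SEs of 0.19 and 0.17, larger than those of 34.1% and 6.16% of genes, far smaller than in A375. The intervals of KRT19 and CDH1 in A375 do not show that they were unaffected.

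**Figure D1:**
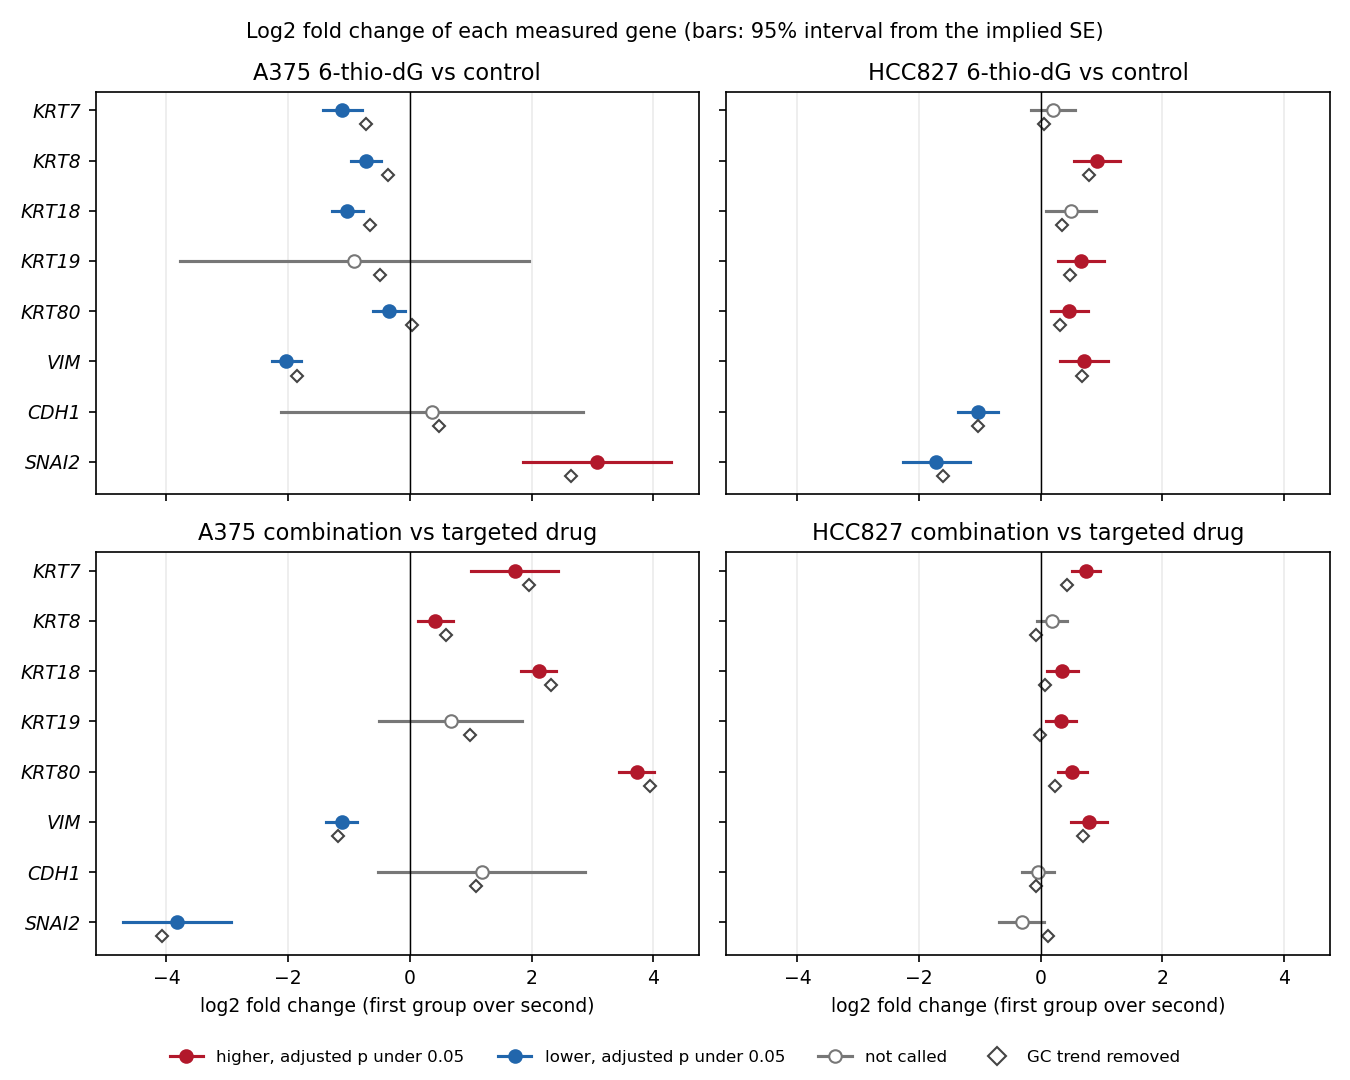
Log2 fold change (x axis) of the 8 measured genes (y axis) in each of the 4 comparisons. Circles are the deposited values, filled where called, bars are 95% intervals from the implied SE, and open diamonds are the values with the GC trend removed. In A375 the called keratins lie left of 0 for 6-thio-dG alone and right of 0 for the combination (KRT80 alone lies at 0.04 in the first once the GC trend is removed), while SNAI2 passes from 3.08 to -3.83.

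Of the 5 keratins 3 rose in HCC827 after 6-thio-dG alone, together with VIM, while CDH1 and SNAI2 fell. Of the 8 genes 4 were called higher and 2 lower, where 29.2% of all genes were called (14.8% higher and 14.4% lower). Their median log2 fold change was 0.48, against 0.01 for all genes. KRT8 led the keratins at 0.92 (SE 0.19, adjusted p = 2.9e-05) in the authors' deposited table, or 1.89-fold higher. KRT19 at 0.66 (SE 0.19, adjusted p = 0.0049) and KRT80 at 0.47 (SE 0.15, adjusted p = 0.013) were also called in the authors' deposited table. KRT18 at 0.50 (SE 0.21, adjusted p = 0.061) and KRT7 at 0.21 (SE 0.19, adjusted p = 0.45) did not pass in the authors' deposited table. With the GC trend removed KRT8 stood at 0.79 and KRT19 at 0.48, both still called, and the KRT80 value of 0.32 was not.

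VIM rose in HCC827 after 6-thio-dG alone, to 0.71 (SE 0.20, adjusted p = 0.0027) in the authors' deposited table. CDH1 was at -1.03 (SE 0.17, adjusted p = 3.2e-08) in the authors' deposited table, a 2.04-fold fall. SNAI2 fell further, 3.28-fold, at -1.71 (SE 0.28, adjusted p = 6.9e-08) in the authors' deposited table, and 142 of the 11828 genes stood lower. The adhesion molecule and its repressor thus fell in the same libraries. Removal of the GC trend left these 3 genes at 0.68, -1.04 and -1.60, all still called.

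Of the 5 keratins 4 rose in A375 when 6-thio-dG was added to PLX4720, while VIM and SNAI2 fell. Of the 8 genes 4 were called higher and 2 lower, where 60.5% of all genes were called (31.2% higher and 29.3% lower). Their median log2 fold change was 0.93, against 0.06 for all genes. KRT80 had the largest rise of the 8, 13.2-fold, at 3.72 (SE 0.15, adjusted p = 7.5e-141) in the authors' deposited table. Only 91 of the 11828 genes stood above it. KRT18 rose 4.34-fold, at 2.12 (SE 0.15, adjusted p = 1.8e-46), and KRT7 3.30-fold, at 1.72 (SE 0.37, adjusted p = 1.0e-05), in the authors' deposited table.

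KRT8, the partner of KRT18, also rose in the A375 combination. The authors' deposited table gives KRT8 as 0.42 (SE 0.15, adjusted p = 0.0105), a 1.34-fold rise. The 95% intervals of the pair, 0.13 to 0.71 for KRT8 and 1.83 to 2.40 for KRT18, do not meet, and KRT18 stood 1.70 above KRT8 on the log2 scale. In the other comparisons KRT18 minus KRT8 was -0.31 with 6-thio-dG alone in A375, and in HCC827 it was -0.42 with 6-thio-dG alone and 0.17 in the combination. Both genes were measured in the same libraries, and the difference between them was not tested.

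VIM fell 2.18-fold in the A375 combination, at -1.12 (SE 0.13, adjusted p = 9.5e-18) in the authors' deposited table. SNAI2 fell 14.2-fold, at -3.83 (SE 0.45, adjusted p = 2.5e-16) in the authors' deposited table, and 139 genes stood lower. KRT19 at 0.67 (SE 0.60, adjusted p = 0.37) and CDH1 at 1.18 (SE 0.87, adjusted p = 0.26) did not pass in the authors' deposited table. Their intervals, -0.50 to 1.85 and -0.52 to 2.88, again include no change and a large rise. With the GC trend removed the same 6 genes were called in the same directions, and the 4 called keratins stood at 0.59 to 3.94.

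Keratin changes were small in HCC827 when 6-thio-dG was added to osimertinib, and most did not outlast removal of the GC trend. Of the 8 genes 5 were called higher and none lower by the authors' adjusted p, where 35.2% of all genes were called (17.3% higher and 17.9% lower). At an unadjusted p under 0.05 none was lower either. Their median log2 fold change was 0.34, against -0.004 for all genes. The authors' deposited table gives KRT7 as 0.74 (SE 0.12, adjusted p = 1.4e-07), KRT80 as 0.52 (SE 0.12, adjusted p = 0.00042), KRT18 as 0.35 (SE 0.13, adjusted p = 0.025) and KRT19 as 0.33 (SE 0.12, adjusted p = 0.028). KRT8 at 0.18 (SE 0.13, adjusted p = 0.26) was not called in the authors' deposited table. The trend at the GC content of these 5 genes amounted to 0.26 for KRT8 up to 0.34 for KRT19. With it removed KRT7 was the 1 keratin still called, at 0.44, beside 0.23 for KRT80, 0.07 for KRT18, -0.07 for KRT8 and -0.01 for KRT19.

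VIM rose in the HCC827 combination by an amount that GC content changed little. It stood at 0.80 (SE 0.15, adjusted p = 6.0e-06) in the authors' deposited table, a 1.74-fold rise, with 129 of the 11828 genes above it, and at 0.70, still called, with the trend removed. After removal 7.68% of all genes were called, 4.55% higher and 3.13% lower. CDH1 stood at -0.04 (SE 0.13, adjusted p = 0.84) in the authors' deposited table, with a 95% interval from -0.30 to 0.22 that leaves out the fall seen without osimertinib. SNAI2 was at -0.31 (SE 0.19, adjusted p = 0.19) in the authors' deposited table and at 0.12 with the trend removed, so its direction could not be set.

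With the GC trend removed, the calls among the 8 genes against those among all genes were as follows. For 6-thio-dG in A375 1 was higher and 4 lower, against 60.7% called (28.6% and 32.1%). For 6-thio-dG in HCC827 3 were higher and 2 lower, against 27.6% called (13.2% and 14.5%). For the A375 combination 4 were higher and 2 lower, against 59.8% called (29.6% and 30.2%). At a change of at least 2-fold as well as the authors' adjusted p, 4 of the 8 were called for 6-thio-dG in A375, 2 in HCC827, 5 in the A375 combination and 0 in the HCC827 combination, against 31.0%, 8.44%, 27.1% and 2.31% of all genes.

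**Figure D2:**
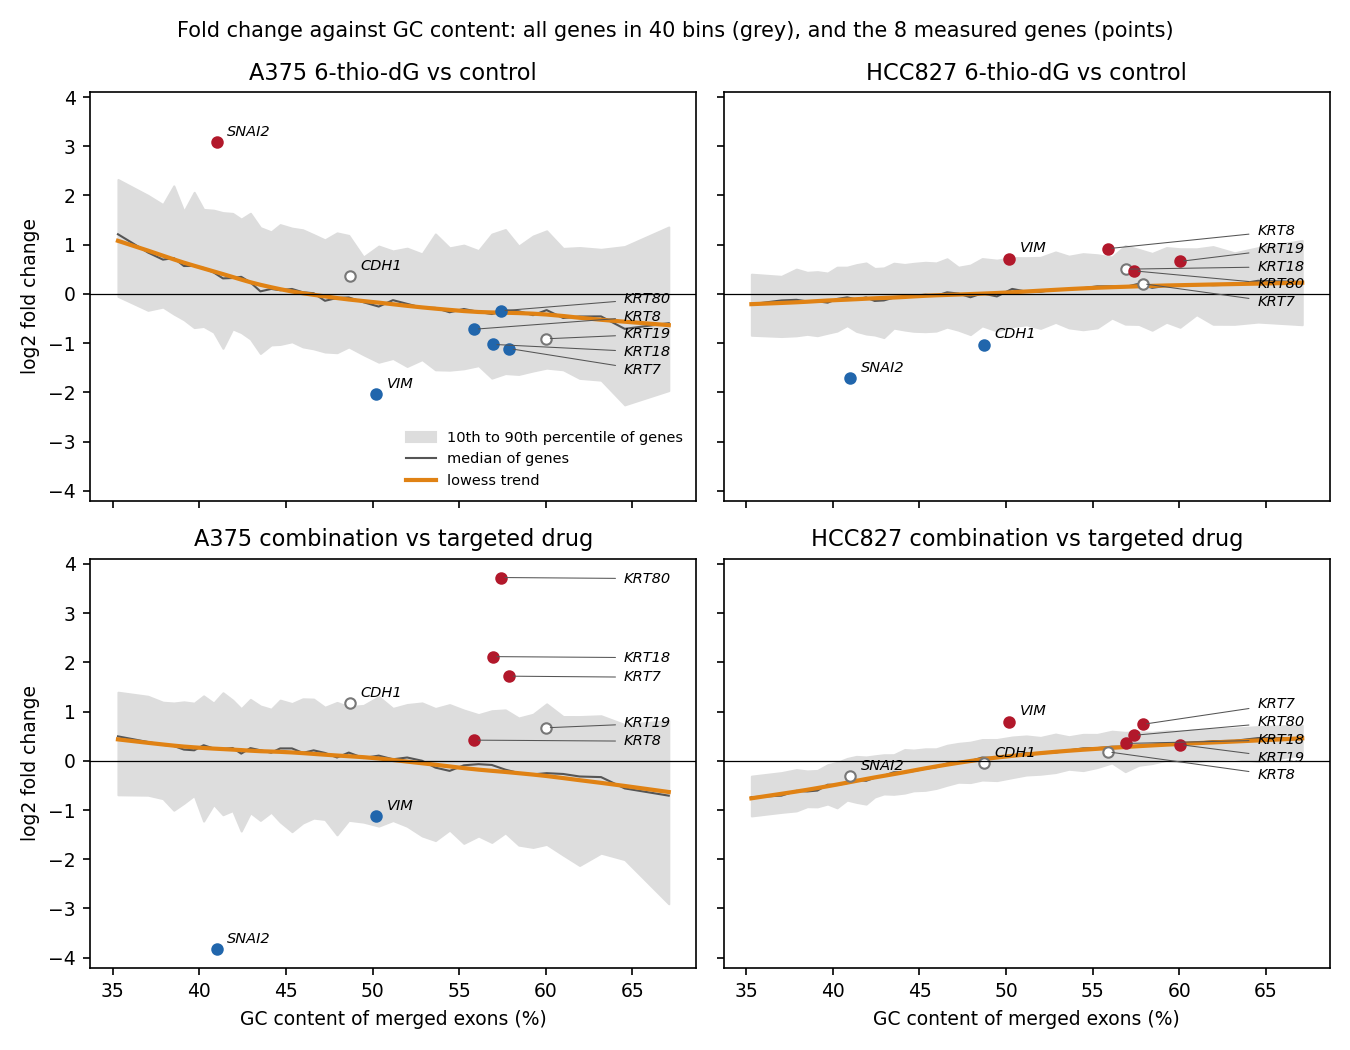
Log2 fold change (y axis) against the GC content of merged exons in percent (x axis) in the 4 comparisons. The grey band spans the 10th to the 90th percentile of genes in 40 bins of GC content, the thin line is their median, the orange line is the lowess trend and points are the 8 genes, filled where called. The keratins stand at 55.9% to 60.02% GC. In the HCC827 combination KRT7 lies above the trend (0.74 against 0.30) and the other keratins lie nearer to it. In the A375 combination 3 keratins lie far above the trend.

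Fold changes of the 8 genes were compared between the lines, and the counts of those that differed stood close to the share over all genes. For 6-thio-dG alone, 6 of the 8 differed between A375 and HCC827 in a z test on the implied SEs, adjusted over all genes, where 55.1% of all genes differed at an adjusted p under 0.05. Of the 6, 1 was higher and 5 lower in A375, against 26.2% and 28.9% of all genes. VIM differed by -2.74 on the log2 scale (A375 minus HCC827, SE 0.23), falling in A375 and rising in HCC827. SNAI2 differed by 4.80 (SE 0.68), rising in A375 and falling in HCC827. KRT8 differed by -1.64 (SE 0.23), KRT18 by -1.53 (SE 0.25), KRT7 by -1.32 (SE 0.25) and KRT80 by -0.81 (SE 0.21). With the GC trend removed from both lines KRT80 was not called, at -0.28. KRT8, KRT80 and VIM were called lower in A375 and higher in HCC827, as were 6.95% of all genes, and SNAI2 was called higher in A375 and lower in HCC827, as were 4.57%.

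For the combination, 5 of the 8 genes differed between the lines, where 56.5% of all genes did (3 higher and 2 lower in A375, against 28.9% and 27.5%). The lines carried different targeted drugs here, PLX4720 and osimertinib, so line and drug cannot be told apart. KRT80 differed by 3.20 (SE 0.19), KRT18 by 1.76 (SE 0.20) and KRT7 by 0.98 (SE 0.39), each higher in A375. VIM differed by -1.92 (SE 0.20) and SNAI2 by -3.52 (SE 0.49), each lower in A375. VIM was again called lower in A375 and higher in HCC827, as were 6.28% of all genes, and none of the 8 was called the other way round, as were 5.11%. KRT8 differed by 0.24 (SE 0.20) as deposited and by 0.67 with the GC trend removed, where it was called. For KRT19 the differences were -1.57 (SE 1.48) alone and 0.34 (SE 0.61) in the combination, and for CDH1 1.40 (SE 1.28) and 1.22 (SE 0.88), none past the threshold.

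In A375 the direction of most of these genes differed between the settings with and without PLX4720. Between the combination against PLX4720 and 6-thio-dG against control, 6 of the 8 genes differed, where 52.6% of all genes did (5 higher and 1 lower in the combination, against 28.5% and 24.1%). SNAI2 differed by -6.91 (combination minus alone, SE 0.77), from a rise without the inhibitor to a fall with it, and was called in those opposite directions together with 3.38% of all genes. KRT80 differed by 4.07 (SE 0.20), KRT18 by 3.14 (SE 0.19), KRT7 by 2.83 (SE 0.40) and KRT8 by 1.14 (SE 0.20). These 4 keratins were called lower without and higher with the inhibitor, as were 5.70% of all genes, though KRT80 was not lower without it once the GC trend was removed. VIM fell in both settings and fell less beside PLX4720, by a difference of 0.91 (SE 0.17). The fold changes of the settings have different references, PLX4720 alone and control. Neither PLX4720 alone nor the combination was compared with control, so where these genes stood against control in the combination is unknown.

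In HCC827 3 of the 8 genes differed between the 2 settings, where 22.3% of all genes did (2 higher and 1 lower in the combination, against 10.8% and 11.4%). CDH1 fell without osimertinib and was not called beside it, a difference of 0.99 (SE 0.21). SNAI2 differed by 1.40 (SE 0.34), called lower without the inhibitor and not called beside it. KRT8 differed by -0.73 (SE 0.23), called higher without it and not called beside it. VIM differed by 0.08 (SE 0.25), with a 95% interval from -0.41 to 0.57. KRT7, KRT18, KRT19 and KRT80 differed by 0.53, -0.15, -0.33 and 0.05 in that order, none past the threshold. None of the 8 was called in opposite directions in the HCC827 settings, where 1.50% of all genes were higher in the combination and lower alone and 1.23% the reverse.

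**Figure D3:**
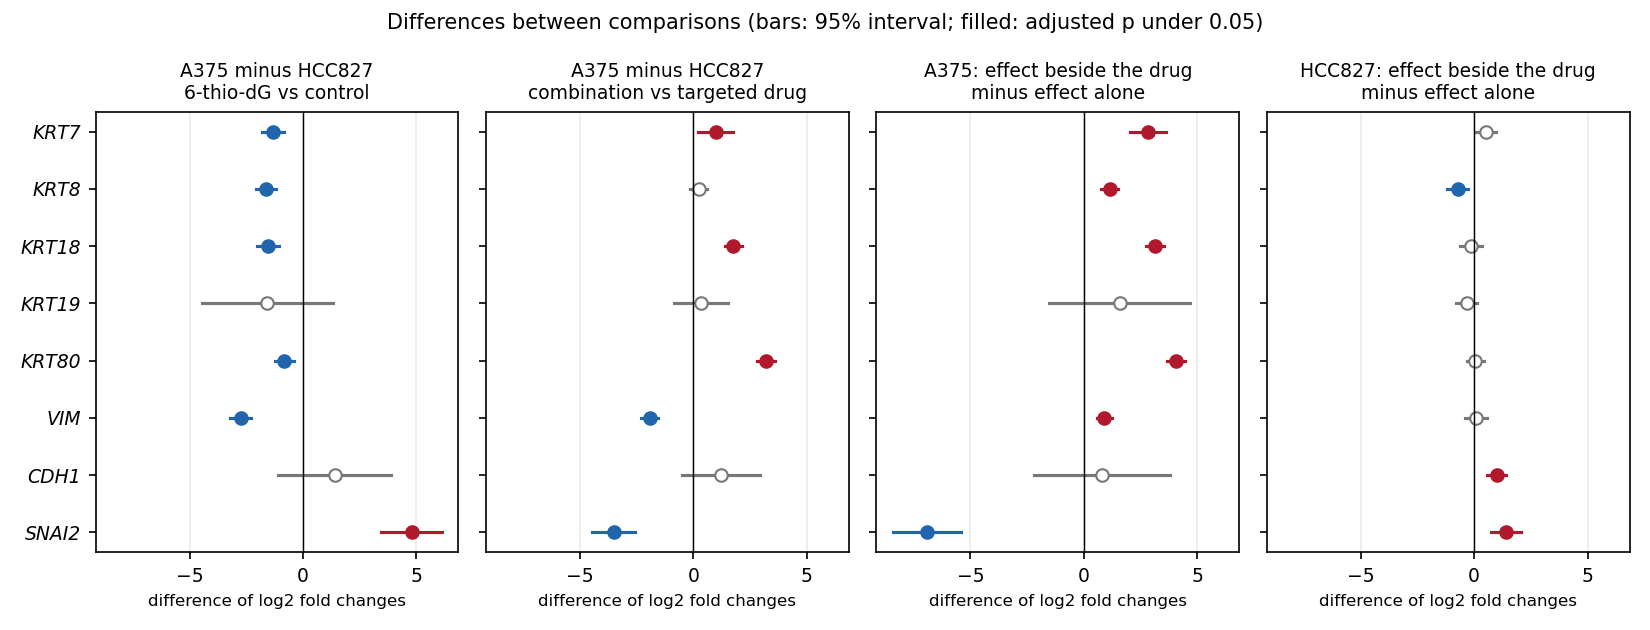
Differences between 2 log2 fold changes (x axis) for the 8 genes (y axis), between the lines in the 2 panels on the left and between the settings with and without the targeted drug in the 2 panels on the right. Points are the difference, filled where the adjusted p was under 0.05, and bars are 95% intervals. SNAI2 stands at -6.91 and KRT80 at 4.07 between the settings in A375, while VIM stands at 0.91 there and at 0.08 in HCC827.

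Of 25 other keratins 5 are in the table, and KRT86, a type II hair keratin of the same cluster, moved in the same directions as KRT7 in A375. It fell to -1.91 (SE 0.22) after 6-thio-dG alone and rose to 3.16 (SE 0.53) in the combination in the authors' deposited table. KRT4 was listed at 6.19 (SE 2.54) and 6.01 (SE 2.69) in the same comparisons of the authors' deposited table, both called, with large SEs. In A375 these 5 keratins had 2 called higher and 1 lower after 6-thio-dG alone (median 0.78) and 3 higher in the combination (median 1.26). Over all genes in A375, 65.0% were called after 6-thio-dG alone (31.3% higher and 33.7% lower). In the A375 combination 60.5% were called (31.2% higher and 29.3% lower). The called share of the 5 stood close to that of all genes in each. In HCC827 the 1 called was KRT10, an epidermal type I keratin, at -0.88 (SE 0.21) after 6-thio-dG alone in the authors' deposited table. Of all genes 29.2% were called there, and 35.2% in the HCC827 combination.

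Linkers and other intermediate filaments moved in both directions in A375. Of 11 measured, 5 were lower and 4 higher after 6-thio-dG alone (median -0.97), and 6 lower and 3 higher in the combination (median -0.70). The called share was 81.8% in each, against 65.0% and 60.5% of all genes. Nestin (NES), which pairs with vimentin, fell to -3.13 (SE 0.15) after 6-thio-dG alone in A375 and rose to 1.55 (SE 0.40) in HCC827, and synemin (SYNM) fell to -3.56 (SE 0.11) in the A375 combination, in the authors' deposited table. Desmoplakin (DSP), which ties keratins to desmosomes, rose to 1.28 (SE 0.16) in the A375 combination in the authors' deposited table. In HCC827 4 were higher and 2 lower in each comparison (medians 0.06 and 0.37), with none called in the combination once the GC trend was removed. As deposited 54.5% were called in each HCC827 comparison, against 29.2% and 35.2% of all genes. The keratin-binding protein FAM83H was at 1.65 after 6-thio-dG alone in A375, the linker DST at -1.08 and -0.83 in the HCC827 comparisons and plectin (PLEC) at 0.60 in the HCC827 combination in the authors' deposited table.

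Cadherin partners and junction genes did not move as a single group. Of 15 other cadherins, catenins and nectins in A375, 7 fell and 2 rose after 6-thio-dG alone (median -0.49), and 6 fell and 1 rose in the combination (median -0.14). The 1 that rose was NECTIN4, an epithelial adhesion receptor, at 5.80 (SE 0.25), and it stood at 5.32 (SE 0.26) after 6-thio-dG alone, in the authors' deposited table, against -1.17 in HCC827 after 6-thio-dG alone. Of 22 desmosome and tight junction genes in A375, 10 rose and 4 fell after 6-thio-dG alone (median 0.52), and 9 rose and 3 fell in the combination (median 0.69). The called shares of 63.6% and 54.5% stood close to those over all genes, 65.0% and 60.5%. The tight junction protein MARVELD2 was at 7.66 (SE 1.92) and cingulin (CGN) at -1.88 (SE 0.26) after 6-thio-dG alone in A375 in the authors' deposited table. Desmocollin 2 (DSC2) was at 1.29 (SE 0.43) and claudin 1 (CLDN1) at -1.69 (SE 0.28) in the A375 combination in the authors' deposited table. In HCC827 2 of the 15 rose and 4 fell after 6-thio-dG alone (median -0.08), while of the 22 junction genes 1 rose and 4 fell (median 0.06), with CLDN1 at -1.81 (SE 0.18) in the authors' deposited table. The HCC827 combination had 4 of the 15 higher and 4 lower (median -0.01) and 8 of the 22 lower (median -0.20), and none of these remained called with the GC trend removed. Over all genes in HCC827, 29.2% were called after 6-thio-dG alone and 35.2% in the combination (17.3% higher and 17.9% lower). The called shares of the 22 stood near these, at 22.7% and 36.4%. Those of the 15 stood above them, with 6 and 8 called. Among the 22, PALS1 was at 0.75 after 6-thio-dG alone and DSC2 at -0.82 in the combination in HCC827 in the authors' deposited table. The leading changes of the 15 elsewhere were CTNNAL1 at -1.41 in the A375 combination, NECTIN1 at 0.94 and CDHR2 at -1.53 after 6-thio-dG alone in HCC827, and NECTIN2 at 0.49 and NECTIN3 at -0.93 in the HCC827 combination in the authors' deposited table.

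While CDH1 fell after 6-thio-dG alone in HCC827, 10 of 21 epithelial regulators and surface proteins were lower and 2 higher (median -0.50), against 14.4% of all genes lower. EHF, an epithelial ETS factor, stood at -1.22 (SE 0.19) in the authors' deposited table, and the adhesion molecule EPCAM at -0.52 and the epithelial splicing factor ESRP1 at -0.86 were called lower as well. In the HCC827 combination 6 were lower and 5 higher (median 0.08), and 3 lower and none higher with the GC trend removed. As deposited 52.4% of the 21 were called there, against 35.2% of all genes. In A375 28.6% were called after 6-thio-dG alone and 42.9% in the combination, below the 65.0% and 60.5% of all genes. In A375 4 rose and 2 fell after 6-thio-dG alone (median 0.17), with the receptor ERBB3 at -2.67 (SE 0.13) in the authors' deposited table, and 3 rose and 6 fell in the combination (median 0.55), with AP1M2 at 2.74 (SE 0.22) and EHF at -5.00 (SE 0.32) in the authors' deposited table. The small GTPase RAB25 was at 6.79 (SE 2.24) after 6-thio-dG alone in A375 and at 0.51 in the HCC827 combination (0.23 and not called with the GC trend removed), the protease ST14 at 0.64 after 6-thio-dG alone in HCC827 and EHF at -0.999 in the HCC827 combination in the authors' deposited table.

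While SNAI2 rose after 6-thio-dG alone in A375, 7 of 10 other EMT transcription factors fell, against 33.7% of all genes. The other 3 were higher, against 31.3% of all genes (median of the 10 -0.58). With the GC trend removed 4 were lower and 3 higher, close to the 32.1% and 28.6% of all genes. The related repressor SNAI1 was at -0.53 (-0.14 and not called with the trend removed) and TWIST2 at -1.76 (SE 0.22) in the authors' deposited table. The 3 that rose were ID1, ID2 and ID3, inhibitors of basic helix-loop-helix factors, led by ID2 at 3.38 (SE 0.31) in the authors' deposited table. In the A375 combination 4 fell and 1 rose (median -0.42), against 29.3% lower and 31.2% higher over all genes. In the authors' deposited table ID1, the 1 that rose, was at 0.33, SNAI1 at -1.73 and HMGA2 at -2.59 (SE 0.12). In HCC827 5 rose after 6-thio-dG alone (median 0.53), against 14.8% of all genes. HMGA2 fell in the HCC827 combination, at -0.36 in the authors' deposited table and at 0.13 with the GC trend removed (list median -0.01). As deposited 17.9% of all genes were lower there.

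Mesenchymal effectors fell with VIM in A375. Of 15 measured, 12 fell and 1 rose after 6-thio-dG alone (median -1.57), and 12 fell and 2 rose in the combination (median -1.70), against 33.7% and 29.3% of all genes lower. The collagen chain COL5A1 was at -3.76 (SE 0.29) and smooth muscle actin (ACTA2) at 2.88 (SE 0.17) after 6-thio-dG alone in A375 in the authors' deposited table. In HCC827, where VIM rose, 6 fell and 3 rose after 6-thio-dG alone (median -0.26), with tenascin C (TNC) at -2.21 (SE 0.16) and transgelin (TAGLN) at 1.64 (SE 0.36) in the authors' deposited table. In the HCC827 combination 6 rose and 1 fell (median 0.27), and none rose with the GC trend removed. Of all genes 14.4% were lower and 14.8% higher in HCC827 after 6-thio-dG alone. In the HCC827 combination 17.9% of all genes were lower and 17.3% higher, with 4.55% higher once the trend was removed. In the A375 combination TNC was at -6.13, with a p-value listed as 0, and ACTA2 at 1.25, and in the HCC827 combination TAGLN was at 0.71 and TNC at -0.39 in the authors' deposited table.

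The TGF-beta pathway, which drives EMT in many epithelia, held genes that moved both ways. In A375 11 of 22 fell and 5 rose after 6-thio-dG alone (median -0.42), and 11 fell and 6 rose in the combination (median -0.40). Of the list 72.7% and 77.3% were called, against 65.0% and 60.5% of all genes. The ligand TGFB2 was at -1.78 (SE 0.51) and the repressor SKIL at 2.63 (SE 0.25) after 6-thio-dG alone, and the latent TGF-beta binding protein LTBP1 at -3.89 (SE 0.25) in the combination, in the authors' deposited table. In HCC827 6 fell and 2 rose after 6-thio-dG alone (median -0.10), and 3 fell and 1 rose in the combination (median -0.14), with none higher in the combination once the GC trend was removed. The deposited called shares in HCC827 were 36.4% and 18.2%, against 29.2% and 35.2% of all genes. The inhibitory SMAD7 was at 0.76 and LTBP2 at -0.97 after 6-thio-dG alone in HCC827, the ligand TGFB1 at 0.59 and the receptor TGFBR1 at -0.82 in the HCC827 combination (0.22 and -0.26, neither called, with the GC trend removed), and SKIL at 1.47 in the A375 combination in the authors' deposited table.

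**Figure D4:**
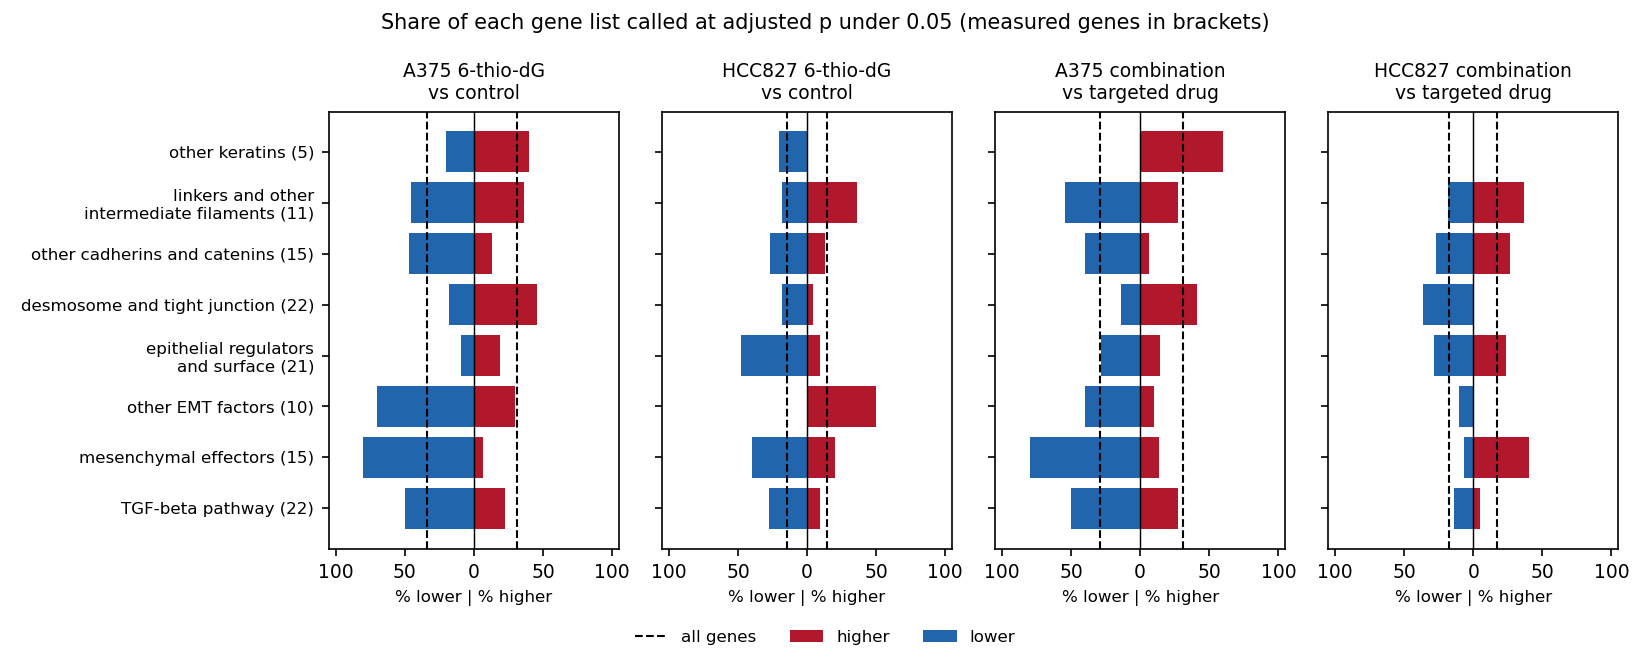
Share of each gene list called higher (right of 0) and lower (left of 0), in percent of its measured genes, in the 4 comparisons. Dashed lines are the same shares over all genes. In A375 12 of the 15 mesenchymal effectors were lower in both comparisons, while the desmosome and tight junction genes lay more to the higher side.

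Markers of other cell types were few in the table. Of 6 leukocyte markers 1 was present, CD68, a lysosomal protein made by many cell types, at 3.22 in A375 and 1.01 in HCC827 after 6-thio-dG alone and at 1.33 in the A375 combination, each called in the authors' deposited table. Of 7 fibroblast markers 1 was present, COL1A1, at -3.15 and -3.61 in the 2 A375 comparisons of the authors' deposited table, and of 5 endothelial markers 1, CDH5, at -4.50 (SE 1.21) in A375 after 6-thio-dG alone. The lung marker NAPSA was listed at 7.85 (SE 1.86) and 3.41 (SE 1.39) in the A375 comparisons of the authors' deposited table. MITF, the melanocyte lineage factor, was at 0.48 after 6-thio-dG alone in A375 (-0.003 with the GC trend removed), at -1.95 in the A375 combination and at -0.62 in the HCC827 combination (-0.16 and not called with the trend removed) of the authors' deposited table. GPR143, a melanosome receptor, was at 1.50 (SE 0.67) and 2.54 (SE 0.95) in the A375 comparisons there, while PMEL and the lung factor NKX2-1 were not called in any of the 4. The part of other cell types in the results above was not tested.

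Likeness to other genes was measured as the root mean square difference over the 4 log2 fold changes. KRT8 had BCL2L12 and PPT2 closest, at 0.067 each, and KRT19 had GTPBP3 at 0.067. KRT7 had CDC42EP2 closest, at 0.13, and KRT18 had TMEM92, at 0.18, which was also the second closest gene to KRT7. VIM had LRFN1 closest, at 0.098, CDH1 had TIMM9, at 0.15, and KRT80 had PDGFA, at 0.27. SNAI2 had no gene as near: its closest were the complement genes CFB, at 0.64, and C4A, at 0.68, which stood at 2.86 and 2.05 after 6-thio-dG alone in A375 and at -3.01 and -4.33 in the A375 combination of the authors' deposited table. The second closest were S100A2 for KRT18 (0.24), ZMYND19 for KRT19 (0.081), MISP for KRT80 (0.37), MRPL23 for VIM (0.11) and LYRM1 for CDH1 (0.19). For KRT19 and CDH1 the likeness rests partly on A375 values whose errors are large.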

How the data were processed

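RNA-seq libraries of A375 and HCC827 cells were processed by the authors. FastQC, Trimmomatic, STAR and the build hg38 are named per the submitters' processing notes. Their versions, the counting, the annotation, the low-value filter and the test used are each not given in the sources used here. Per the file headers, the deposited table lists log2 fold changes with raw and adjusted p-values for 11828 genes in 4 comparisons. It holds no values per library, so the planned steps that need them could not be run.

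The SE was computed as the size of the log2 fold change divided by the normal z of the deposited p-value, which assumes a normal test and fold changes without shrinkage. To compare fold changes, a two-sided z test was used, with Benjamini-Hochberg adjustment over all genes, leaving out genes whose p-value was listed as 0 (7 in the A375 6-thio-dG comparison and 16 in the A375 combination). The 2 arms within a line were taken as independent, as they share no libraries. GC content came from merged exons in GENCODE release 29, which matched 11796 genes (99.7%), and its trend was a lowess curve over 0.3 of the genes. Alternatives were an adjusted p of 0.01, a minimum change of 2-fold, a wider lowess of 0.6 and centring on the median. Further ones were Benjamini-Hochberg adjustment recomputed over the table and a t reading with 4 degrees of freedom per comparison. The t reading implies smaller SEs, and a difference was tested with the degrees of freedom of its 2 comparisons added.

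Beside the members, 8 pathway lists and 5 marker lists were described. From each list and comparison the called gene with the largest rise and the one with the largest fall were named, except 1 that is not reported here, and further values (KRT86 in the A375 combination, NECTIN4 in HCC827, EPCAM, ESRP1, SNAI1, ID1, ID3) were chosen after their values were seen, as was the GC box. The members and lists were chosen with earlier results of these data known. Python 3.11.15, pandas 2.3.3, scipy 1.17.1 and statsmodels 0.14.6 were used. The 20 libraries of a time course were not used here.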

Additional observations from a re-analysis of the deposited data

Results flagged for a closer look

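The response to 6-thio-dG differed between the lines for 11 member values, each by a z test of the difference itself (A375 minus HCC827, log2 scale, 2 libraries per arm). For 6-thio-dG alone the differences were -1.32 for KRT7, -1.64 for KRT8, -1.53 for KRT18, -0.81 for KRT80, -2.74 for VIM and 4.80 for SNAI2. For the combination they were 0.98 for KRT7, 1.76 for KRT18, 3.20 for KRT80, -1.92 for VIM and -3.52 for SNAI2. In the combination the lines also carried different targeted drugs, so line and drug cannot be told apart. Of all genes, 55.1% and 56.5% also differed. The difference for KRT80 with 6-thio-dG alone was not called once the GC trend was removed.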

How the results depend on the processing

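No paired analysis was possible because the table holds no values per library; leaving out a replicate, a filter on low counts and other count tests were not run for the same reason. With the GC trend removed over 0.3 or 0.6 of the genes, the direction changed for KRT80 with 6-thio-dG in A375 (0.0363 and 0.0285), and in the HCC827 combination for KRT8 (-0.0747 and -0.0631), KRT19 (-0.0116 and -0.00501) and SNAI2 (0.121 and 0.120). The KRT80 difference between the HCC827 settings became -0.0893 and -0.0874. In the HCC827 combination 5 genes were called as deposited, 2 under either GC setting, 3 at an adjusted p of 0.01 and 0 at a change of at least 2-fold. In HCC827 with 6-thio-dG alone 2 were called at 2-fold. Between the HCC827 settings 3 genes differed, 1 at 2-fold and 5 under the t reading. Why these values moved was not tested. Depth is unknown, and the large SEs of KRT19 and CDH1 in A375 set what could be seen there.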
